A study of Mus musculus with 6 samples.

Results

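The 7 mismatch repair genes Msh6, Msh3, Msh4, Msh5, Pms2, Pms1 and Mlh3 were examined in cultured mouse spermatogonia that had been stored frozen in space or on the ground. Members were the rows of the raw count table that carried these gene names, 7 of 32285 genes, and all 7 had enough counts to be tested. The cells were germline stem (GS) cells, spermatogonia that keep stem cell activity in culture, derived from 2 to 3 day old DBA/2 mice with the transgene Tg14(act-EGFP-OsbY01), in which an actin promoter drives EGFP. They were grown with GDNF and FGF2 on mouse embryonic fibroblast feeders, so the RNA of a culture can also hold feeder RNA. All cells were cryopreserved for 6 months, those of the Space group (3 libraries) on the International Space Station (ISS) and those of the Ground group (3 libraries) on Earth. RNA was taken on the day after thawing, before any passage, and poly(A) libraries were made. No group of never-frozen cells was analysed here, so freezing and thawing are common to both groups.

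Mismatch repair corrects bases that DNA polymerase mispaired and short loops where a strand slipped. MutS proteins find the error, and MutL proteins then nick the new strand so that it can be cut back and copied again. In the germ line some family members do another job: Msh4 and Msh5 hold recombining chromosomes together in meiosis, and Mlh3 cuts the joined DNA to make crossovers.

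The groups follow the library titles, and the treatment label states the opposite group for all 6 libraries. The column names of the count table match the titles. Either label splits the libraries alike, but a wrong title would turn the sign of every difference given as Space minus Ground. Total counts lay between 19015985 and 24110916 per library. The spermatogonial label was met by the markers: all 12 germ cell genes examined, among them Ddx4 and Zbtb16, passed the filter. Together they had 3774 to 3918 CPM in the 6 libraries (CPM, counts relative to the same library size after TMM scaling, which trims extreme ratios between libraries). Passing the filter was not particular to them. All 5 meiotic marker genes examined passed it, with 284 to 312 CPM in sum. The 4 Sertoli genes (24.5 to 27.8 CPM) and the 3 endothelial genes (10.5 to 20.7 CPM) passed it too. Of 4 macrophage genes (14.1 to 22.6 CPM in sum) Ptprc and Cd68 passed it, and Csf1r and Adgre1 did not. The 11 feeder fibroblast genes summed to 732 to 805 CPM in Ground and 604 to 777 CPM in Space. Their log2 fold changes were below 0 for 11 of 11, where the median of all genes tested was -0.0020, and 0 passed edgeR's test. At an unadjusted p under 0.05 there were 3 of the 11, against 0.609% of all genes tested. Without Space-1, 9 of the 11 were below 0 and 1 had an unadjusted p under 0.05. The part of feeder RNA in the values below was not tested. By correlation each library was most like a library of the other group, though for Ground-2 and Space-2 only weakly. Over the 1000 most variable genes Ground-1 was most like Space-3 (r = 0.586 of log2 CPM centred per gene), Ground-3 was most like Space-1 (r = 0.375), and Ground-2 was most like Space-2 (r = 0.0377). In a chi-square comparison of counts over genes, Ground-1 and Space-3 came close to counting noise, at 1.83 times the degrees of freedom against 13.7 to 111 for the other 14 pairs. Ground-1 and Space-3 were kept as separate libraries because their labels put them in different groups, and the comparisons between groups are given below also without both. By the same chi-square Ground-3 was closest to Space-2 (13.7), and Space-1 to Space-3 of its own group (23.9, against 24.3 to Ground-3). Only the pair of Ground-1 and Space-3 was therefore clear by both measures. No label states that these libraries share a culture, and no test below pairs them. The text of the study calls the samples of each group lines, but the labels only number them 1 to 3 and name no line, culture or animal, so p-values measure the spread between these libraries, which may be technical.

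Msh6 (ENSMUSG00000005370, chromosome 17, 87975062 to 87990892, plus strand, mm10) encodes the MutS subunit that recognises single mispaired bases and small loops. It had 445, 486 and 511 CPM in Ground-1, Ground-2 and Ground-3 and 532, 498 and 446 CPM in Space-1, Space-2 and Space-3. The lowest values were those of Ground-1 and Space-3, the highest was that of Space-1, and the groups overlapped. With 9135 to 12932 counts per library, counting error was at most 1.05% of a value. Msh3 (ENSMUSG00000014850, chromosome 13, 92211872 to 92355003, minus strand) encodes the subunit that recognises larger insertion and deletion loops. It had 37.3, 42.5 and 44.6 CPM in Ground and 43.6, 41.4 and 37.0 CPM in Space, in the order of the library numbers. Ground-1 and Space-3 were again the lowest, and the groups overlapped.

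Promoter windows of members are shown because the genes differ in CpG content and in the neighbours that start beside them. Each window is the RefSeq sequence (GRCm38.p6) from 250 bases before to 50 bases after the annotated start, and windows of 6 members were examined. The words searched on both strands were an E2F word (TTTGGCGC, TTTCCCGC or TTTGGCGG), the GC box (GGGCGG), the CCAAT box (CCAAT), the NRF1 word (CGCATGCG), the cAMP response element (TGACGTCA) and the TATA box (TATAAA). Capitals mark every match, and overlapping GC boxes run together. The window of Msh6 is chr17:87974800-87975099 on the plus strand.
Msh6: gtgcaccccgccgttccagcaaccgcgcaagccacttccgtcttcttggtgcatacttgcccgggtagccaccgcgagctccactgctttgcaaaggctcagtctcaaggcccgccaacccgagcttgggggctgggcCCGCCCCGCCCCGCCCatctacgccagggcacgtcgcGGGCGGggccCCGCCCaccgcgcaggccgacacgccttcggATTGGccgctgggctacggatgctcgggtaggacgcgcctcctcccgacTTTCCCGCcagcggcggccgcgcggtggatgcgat

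Msh6 had 37 CpG dinucleotides and 71.7% G and C, against medians of 7 and 52.7% over 32851 promoter windows. The Msh6 window held 1 E2F word, 5 GC boxes and 1 CCAAT box. Of all windows 2.1% held an E2F word, 35.7% a GC box and 37.4% a CCAAT box. These matches are letters in a window and were not tested as binding sites.

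Among the MutL genes, Pms2 (ENSMUSG00000079109, chromosome 5, 143909964 to 143933968, plus strand) encodes the subunit that nicks DNA in mismatch repair. By library number it had 61.9, 65.7 and 61.4 CPM in the Ground group, against 59.1, 65.1 and 62.7 CPM in the Space group. Ground-2 and Space-2 were the highest and Space-1 was the lowest. Pms1 (ENSMUSG00000026098, chromosome 1, 53189187 to 53297018, minus strand) encodes a MutL subunit whose part in repair is less clear. It had 38.1, 39.1 and 37.6 CPM in Ground and 37.0, 41.5 and 38.0 CPM in Space, with Space-2 the highest. For Pms2 and Pms1 the values of the groups overlapped. Ground-2 and Space-2, the highest libraries for both genes, also had the largest shares of mitochondrial counts, 11.5% and 7.12% against 2.51% to 5.70% in the other 4, and the part of this in the values was not tested. Mlh3 (ENSMUSG00000021245, chromosome 12, 85234520 to 85270599, minus strand), which acts mainly in meiotic crossing over, had 26.6, 29.1 and 32.3 CPM in Ground and 34.8, 30.8 and 27.9 CPM in Space. Mlh3 was lowest in Ground-1 and highest in Space-1, and the groups overlapped. Its highest value was 1.31 times its lowest, the widest range of the 7 members, and for Pms2 this factor was 1.11, the narrowest.

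The meiotic MutS genes were measured in these cultured spermatogonia as well. Msh4 (ENSMUSG00000005493, chromosome 3, 153857149 to 153906138, minus strand) had 364, 244 and 329 counts in the Ground libraries and 303, 258 and 384 counts in the Space libraries. Scaled, these were 15.0, 12.98 and 14.4 CPM in Ground and 12.5, 13.7 and 15.4 CPM in Space. Space-3 and Ground-1 were the highest, unlike for Msh6, Msh3 and Mlh3, where both were the lowest or next to it. Msh5 (ENSMUSG00000007035, chromosome 17, 35028605 to 35046745, minus strand), the partner of Msh4, had 14.3, 15.8 and 15.9 CPM in Ground and 16.3, 15.9 and 15.8 CPM in Space. Ground-1 was low and the other 5 libraries lay between 15.8 and 16.3 CPM. For Msh4 counting error was 5.10% to 6.40% of a value and for Msh5 5.03% to 5.80%, so differences of a few percent between libraries were not detectable at this depth.

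The windows of Msh4 and Msh5 are set together because the proteins act as a pair while the sequences differ. They are chr3:153904842-153905141 for Msh4 and chr17:35046573-35046872 for Msh5, both on the minus strand.
Msh4: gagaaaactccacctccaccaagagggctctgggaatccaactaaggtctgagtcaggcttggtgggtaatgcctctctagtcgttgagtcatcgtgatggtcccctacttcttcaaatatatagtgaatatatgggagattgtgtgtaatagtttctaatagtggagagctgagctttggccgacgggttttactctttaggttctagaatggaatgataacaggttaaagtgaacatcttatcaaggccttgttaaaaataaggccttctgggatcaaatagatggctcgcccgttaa
Msh5: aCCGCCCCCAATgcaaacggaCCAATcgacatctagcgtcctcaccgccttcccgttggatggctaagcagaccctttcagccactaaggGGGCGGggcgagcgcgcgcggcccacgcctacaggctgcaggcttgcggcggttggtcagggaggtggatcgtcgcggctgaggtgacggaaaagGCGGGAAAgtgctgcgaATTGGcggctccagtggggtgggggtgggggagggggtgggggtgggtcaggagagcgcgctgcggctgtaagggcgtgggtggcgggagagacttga

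The Msh4 window had 6 CpG dinucleotides, 43.3% G and C and 0 matches to the 6 motifs, while the Msh5 window had 27, 67.3%, and 1 E2F word, 2 GC boxes and 3 CCAAT boxes. The RefSeq start of Msh4 lies 1247 bp from the start of the gene in GENCODE M21, the annotation named in the methods of the study. This window may therefore not be the start used in these cells. For the other 5 members with a window the distance was 0 to 123 bp.

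**Figure D1:**
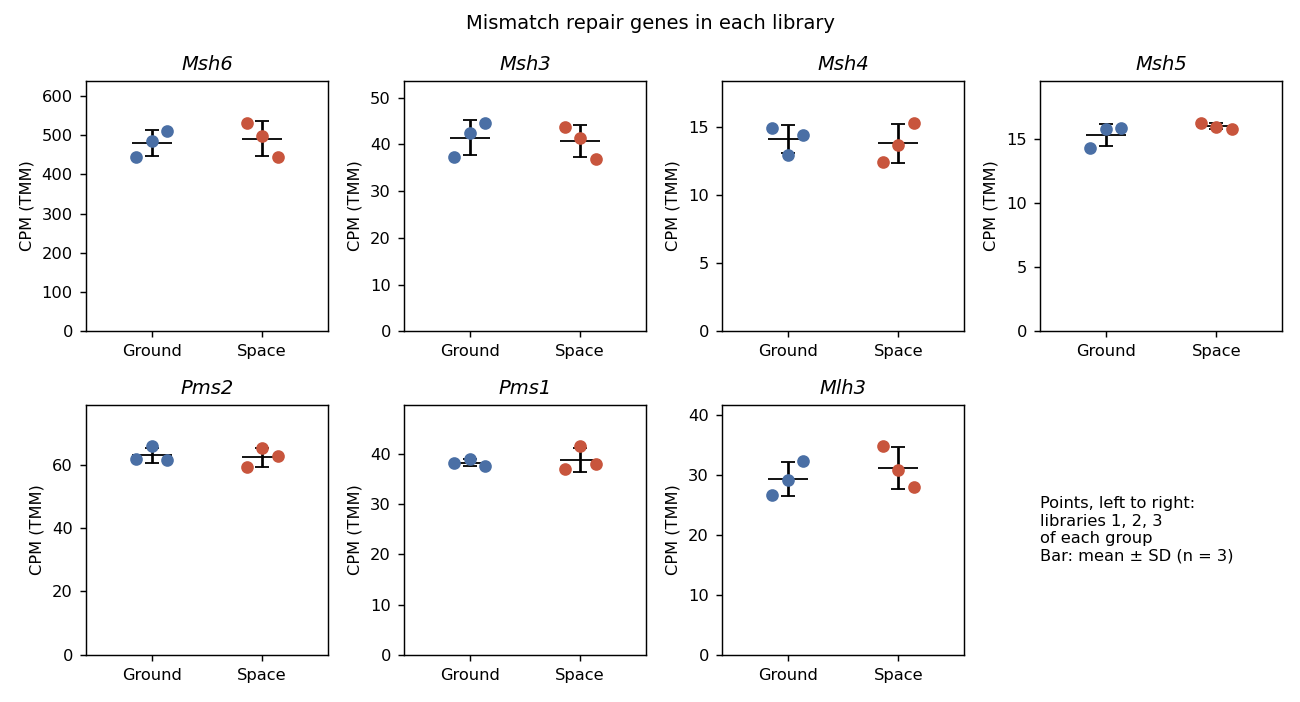
CPM (y axis, scaled by TMM, from 0) of the 7 mismatch repair genes in each of the 3 Ground (blue) and 3 Space (red) libraries; points stand in the order of the library numbers and black marks give the mean ± SD. The values of the groups overlap in every panel, and Msh6 spans 445 to 532 CPM while Msh4 spans 12.5 to 15.4 CPM.

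Levels of different genes were compared as CPM per kilobase of exon, the sum of all annotated exons of a gene. Msh6 stood far above the others, with 112 CPM per kb on average over the 6 libraries (range 102 to 122), higher than 98.3% of the genes tested. The next was Pms2 with 7.72 CPM per kb (7.29 to 8.09), followed by Pms1 with 5.11 (4.90 to 5.50), Mlh3 with 4.005 (3.52 to 4.60) and Msh3 with 3.65 (3.29 to 3.97). Msh5 had 2.84 CPM per kb (2.59 to 2.95) and Msh4 had 2.03 (1.81 to 2.23), the lowest of the 7. The median of all genes tested was 5.23 CPM per kb, and the means of 5 of the 7 members lay below it. The range of Pms1 over libraries crossed this median. The comparison holds for this length only, since no median was computed with the longest transcript as length.

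Msh6 exceeded Pms2 by 14.5 times per length, in 6 of 6 libraries. Each neighbour in the order exceeded the next in 6 of 6 libraries. The order was set from these same libraries, so this is a description and no p is given for it. The narrowest step was from Mlh3 to Msh3, a factor of 1.10, and their ranges over libraries overlapped. The first and the last 2 places did not depend on the length used, but the middle did. With the longest transcript as length the order was Msh6, Pms1, Pms2, Msh3, Mlh3, Msh5 and Msh4, where the exons of Msh3 sum to 11254 bp and its longest transcript to 4254 bp, and those of Pms1 to 7542 and 3054 bp. Which transcripts these cells make was not measured by counts per gene.

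**Figure D2:**
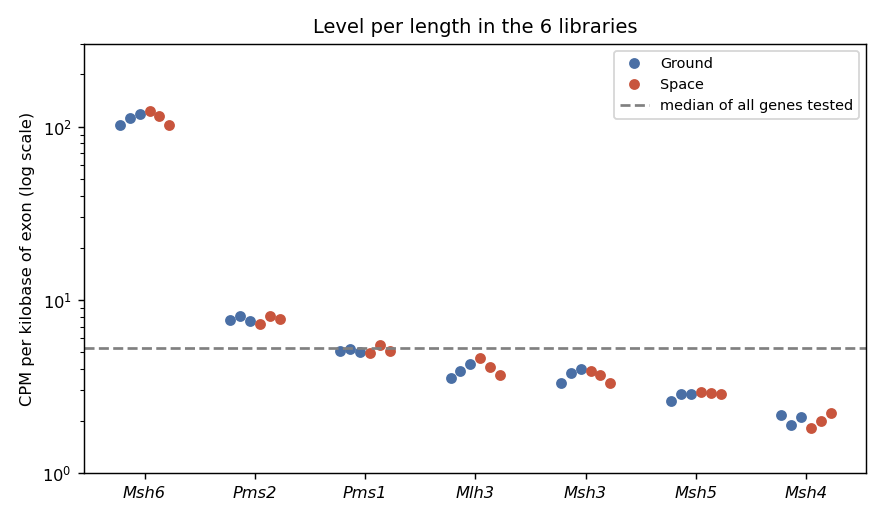
CPM per kilobase of exon on a log scale (y axis) for the 7 members ordered by mean level, with 1 point per library (Ground blue, Space red) and the median of all genes tested, 5.23, as a dashed line. Msh6 lies at 102 to 122 in all 6 libraries and the other 6 genes between 1.81 and 8.09.

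RNA-seq was done to look for genes that spaceflight had induced. None of the 7 mismatch repair genes passed edgeR's quasi-likelihood test between Space and Ground, with 0 of 7 at a Benjamini-Hochberg adjusted p under 0.05 against a background of 0% of the 15104 genes tested. At an unadjusted p under 0.05 there were also 0 of 7, where the background was 0.609%, or 92 genes. DESeq2 and limma-voom called 0 of 7 and 0 genes in all, with 45 and 88 genes at an unadjusted p under 0.05. The groups did not overlap for 0 of 7 members, against 3.59% of all genes tested. In bulk RNA a lower level could be fewer cells that express a gene or less RNA per cell, and these cannot be told apart.

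All 7 log2 fold changes were smaller than their standard errors. Over all genes tested the median size was 0.052 and the median SE 0.13, so a change below its SE does not set the members apart. Of the members, Mlh3 had the largest change, at 0.087 (SE 0.11, 95% interval -0.17 to 0.35), from a mean of 29.4 ± 2.87 CPM in Ground against 31.2 ± 3.43 CPM in Space (SD, n = 3). Msh5 followed with 0.064 (SE 0.098, interval -0.16 to 0.29), from 15.3 ± 0.875 and 16.0 ± 0.248 CPM (SD, n = 3). Msh6 had 0.033 (SE 0.083), from 481 ± 33.1 and 492 ± 43.6 CPM, and Pms1 had 0.019 (SE 0.075), from 38.3 ± 0.721 and 38.8 ± 2.38 CPM (SD, n = 3). The remaining values were negative: -0.029 for Msh4 (SE 0.12), from 14.1 ± 1.03 and 13.9 ± 1.44 CPM, -0.028 for Msh3 (SE 0.098), from 41.5 ± 3.79 and 40.7 ± 3.39 CPM, and -0.016 for Pms2 (SE 0.065), from 63.0 ± 2.36 and 62.3 ± 3.01 CPM (SD, n = 3). The adjusted p from edgeR was 0.9999 for each, and the unadjusted p lay between 0.465 and 0.821. With total counts in place of TMM the values of Msh3, Msh4 and Pms2 were above 0, and leaving out 1 library turned the sign of each member but Msh5, so these values give no direction. Without both Ground-1 and Space-3, a setting chosen after seeing the data, the values lay between -0.063 for Msh4 and 0.097 for Mlh3, and 0 of 7 passed edgeR's test.

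The intervals around these values are per gene and not adjusted over genes, so they are not the limit of what the adjusted test could call. For Pms2, the most precise, the 95% interval of the Space to Ground ratio ran from 0.890 to 1.10, and for Msh6 from 0.896 to 1.17. The widest were those of Msh4, 0.804 to 1.195, and Mlh3, 0.886 to 1.27. Over the 7 members no interval reached below 0.804 or above 1.27. The median log2 fold change was 0.019 for the 7 members and -0.0020 for all genes tested, and the median size without sign was 0.029 against 0.052.

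**Figure D3:**
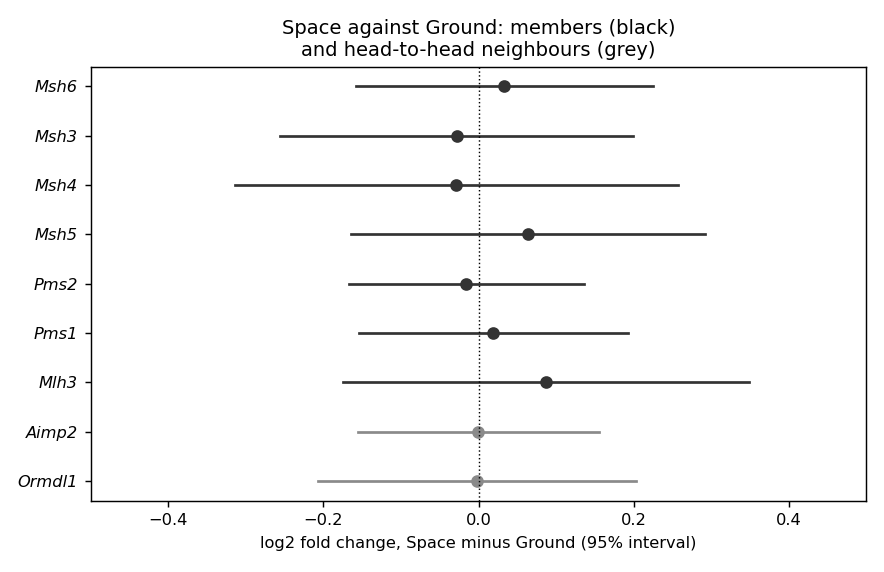
log2 fold change of Space minus Ground with its 95% interval from edgeR (x axis) for the 7 members in black and 2 genes that start beside a member on the opposite strand in grey. Every interval spans 0, from the narrowest, Pms2 at -0.17 to 0.14, to the widest, Msh4 at -0.31 to 0.26.

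Ratios of related subunits within a library do not depend on scaling. The Msh6 to Msh3 count ratio, the balance between the subunit for mispairs and that for larger loops, was 11.9, 11.4 and 11.4 in the Ground libraries and 12.2, 12.0 and 12.1 in the Space libraries. The Space values all lay above the Ground values, by 0.059 on the log2 scale (2-sided exact permutation p = 0.1, the smallest that 3 against 3 allows, 0.3 adjusted over 3 ratios). The counting error of this difference between group means was 0.041 on the log2 scale. The nearest values of the groups were 11.94 in Ground-1 and 12.01 in Space-2, and the counting error of a single ratio was 3.46%. Without both Ground-1 and Space-3 the difference was 0.082, where 2 against 2 libraries allow no exact permutation p below 0.3333. The Pms2 to Mlh3 ratio was 2.32, 2.26 and 1.90 in Ground and 1.70, 2.12 and 2.24 in Space, a log2 difference of -0.10 (exact permutation p = 0.5, adjusted 0.5). The Msh5 to Msh4 ratio was 0.956, 1.22 and 1.10 in Ground and 1.31, 1.159 and 1.03 in Space, a log2 difference of 0.096 (exact permutation p = 0.5, adjusted 0.5). For Pms2 over Mlh3 and Msh5 over Msh4 the groups overlapped.

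The members varied between libraries in more than one way. Over all 6 libraries the coefficient of variation was 9.91% for Mlh3, 8.08% for Msh4, 7.90% for Msh3 and 7.23% for Msh6, and it was 4.39% for Msh5, 4.14% for Pms1 and 3.91% for Pms2. The median over all genes tested was 10.6%. Msh6, Msh3 and Mlh3 kept nearly the same order of libraries: Ground-1 and Space-3 lay 7.67% to 12.0% below the mean of the gene, and Ground-3 and Space-1 lay 5.06% to 14.9% above it. As a description over 6 libraries, with 1 TMM factor per library common to all genes, Pearson's r of log2 CPM was 0.964 for Mlh3 with Msh6 and 0.939 for Msh3 with Msh6. Msh4 ran the other way, with r = -0.79 to Msh6. Pms1 and Pms2 were alike with r = 0.818 and had values of -0.072 and -0.30 to Msh6.

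This order of libraries was set beside the pairs most alike by correlation over the 1000 most variable genes. Of these pairs only Ground-1 and Space-3 were clear by chi-square too, and Ground-2 and Space-2 had an r of 0.0377. Between Ground-1 and Space-3 Msh6 differed by 0.0014 on the log2 scale, between Ground-2 and Space-2 by 0.034, and between Ground-3 and Space-1 by 0.059, against a median size of 0.14 in the other 12 pairs of libraries. For Msh3 these differences, Space minus Ground, were -0.012, -0.037 and -0.033, against 0.18. For Msh4 they were 0.035, 0.082 and -0.21, against 0.15, and for Msh5 0.14, 0.011 and 0.039, against 0.038. Counting error of 1 value was at least 5.10% for Msh4 and 5.03% for Msh5, so the smaller of these differences cannot show whether the genes followed the resemblance. For Pms2 the differences were 0.018, -0.013 and -0.055, against 0.079, and for Pms1 -0.0063, 0.087 and -0.026, against 0.049. Mlh3 was higher in the Space library of all 3 such pairs, by 0.070, 0.081 and 0.10, and so were Msh6 and Msh5, while Msh3 was lower in all 3. A difference carries the counting error of both its values, and some of these differences lay within it. Among them were 0.0014 for Msh6, 0.011 and 0.039 for Msh5, 0.070 and 0.081 for Mlh3, and all 3 of Msh3. Counting error of 1 value was at least 0.879% for Msh6, 5.03% for Msh5, 3.44% for Mlh3 and 3.07% for Msh3. These pairs were found from the expression values and were not tested. The share of all genes with the same sign in all 3 pairs was not counted, so these signs give no direction.

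The libraries low in Msh6 and Msh3 were also those with the lowest summed level of 13 cell cycle genes. The sum was 3911 CPM in Ground-1 and 3903 in Space-3, or 9.69% and 9.90% below its mean, and 4497 to 4646 CPM in the other 4 libraries. Msh6 and Msh3, at 8.44% and 9.26% below their means in Ground-1 and 8.35% and 9.99% below in Space-3, were low in the same libraries. Ground-1 and Space-3 were the lowest pair for 9 of the 13 genes, among them Mki67 and Top2a, but not for Mcm4, Mcm5, Ccne1 and Ccne2, against 19.7% of all genes tested. The part of cell cycling in the levels of Msh6 and Msh3 was not tested.

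**Figure D4:**
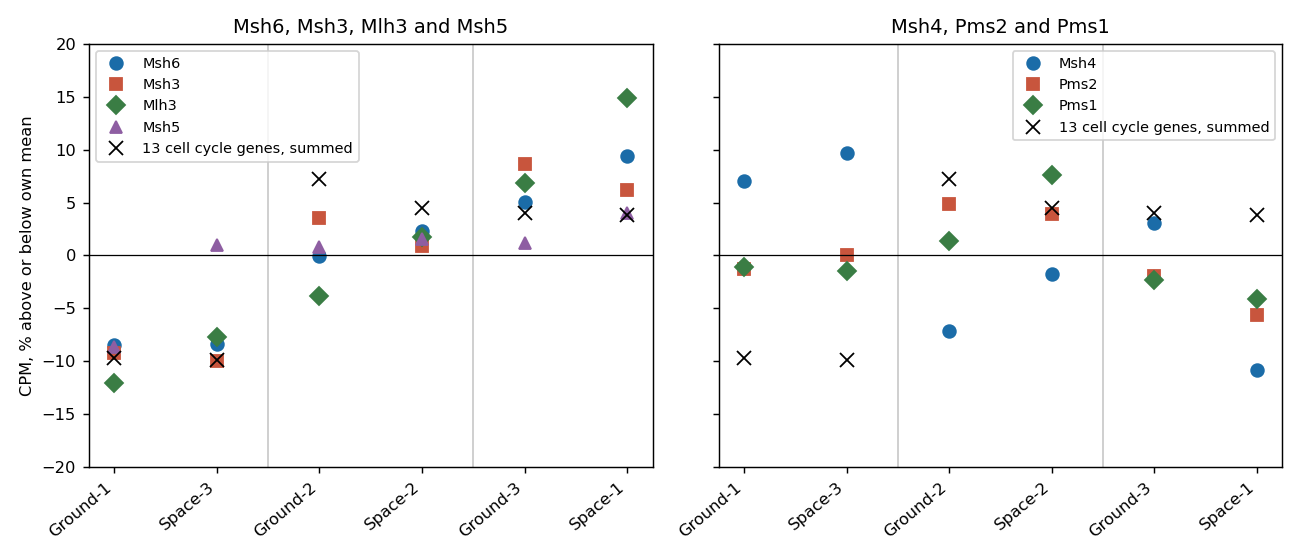
CPM of each member as percent above or below its own mean over 6 libraries (y axis), with libraries ordered so that those most alike over 1000 variable genes stand side by side, and the summed CPM of 13 cell cycle genes as crosses. Msh6, Msh3 and Mlh3 lie 7.67% to 12.0% below their means in Ground-1 and Space-3, whereas Msh4 lies 7.06% and 9.72% above its mean there.

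Beside Pms2 and Pms1 a gene on the opposite strand starts within 1000 bp. Aimp2, a scaffold of the tRNA synthetase complex, starts 117 bp from Pms2, and Ormdl1, a regulator of sphingolipid synthesis, starts 77 bp from Pms1. The annotated gene Gm28778 starts on the same strand as Ormdl1, 93 bp from Pms1 and within its promoter window, and has no row in the raw count table. The annotated starts of Aimp2 and Ormdl1 lie within the promoter windows of Pms2 (chr5:143909751-143910050, plus strand) and Pms1 (chr1:53296979-53297278, minus strand), which are printed for that reason.
Pms2: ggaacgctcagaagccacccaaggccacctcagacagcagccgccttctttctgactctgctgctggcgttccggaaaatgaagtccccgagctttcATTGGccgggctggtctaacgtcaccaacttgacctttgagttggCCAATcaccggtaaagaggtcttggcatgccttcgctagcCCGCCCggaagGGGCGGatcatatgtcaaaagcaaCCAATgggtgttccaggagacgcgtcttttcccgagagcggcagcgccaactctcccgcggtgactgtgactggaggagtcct
Pms1: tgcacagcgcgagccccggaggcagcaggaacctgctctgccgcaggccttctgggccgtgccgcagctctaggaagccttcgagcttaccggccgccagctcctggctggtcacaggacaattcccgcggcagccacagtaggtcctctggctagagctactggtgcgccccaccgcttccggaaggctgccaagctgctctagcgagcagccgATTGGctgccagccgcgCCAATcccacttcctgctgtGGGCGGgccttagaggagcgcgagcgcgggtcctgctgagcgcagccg

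The Pms2 window held 2 GC boxes and 3 CCAAT boxes, and that of Pms1 held 1 GC box and 2 CCAAT boxes. The CCAAT box was found in 5 of the 6 windows, with 1 in the window of Mlh3, against 37.4% of all windows. An NRF1 word, cAMP response element or TATA box was found in 0 of 6. Of all windows 1.87%, 1.79% and 13.6% held these, so 0 of 6 does not set the members apart.

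Aimp2 had 78.5, 78.2 and 82.0 CPM in Ground and 81.1, 84.0 and 73.6 CPM in Space. Ormdl1 had 21.4, 19.9 and 22.2 CPM in Ground and 21.7, 20.7 and 20.98 CPM in Space. Aimp2 was lowest in Space-3 and Pms2 in Space-1, and Ormdl1 was lowest in Ground-2, where Pms1 was second highest. Neither neighbour passed edgeR's test, with log2 fold changes of -0.00041 for Aimp2 (SE 0.067) and -0.0022 for Ormdl1 (SE 0.088) and an adjusted p of 0.9999 each. Msh6 shares 34 exon bases with Fbxo11 on the opposite strand, and Pms2 shares 85 with Rsph10b on its own strand. Annotated stretches are also shared by Pms2 with Gm42421 (394 bases, same strand), Msh4 with the small nucleolar RNA Gm24395 (125, opposite strand) and Pms1 with Gm28777 (138, opposite strand). Gm28777 had 0 counts in all 6 libraries, and Gm42421 and Gm24395 have no row in the raw count table. How the counting used strand is not given in the sources used here. Reads from these stretches may therefore be counted to the member, to the other gene where it has a row, or to neither.

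The proteins that act after MutS and MutL were examined as a list of 18 genes, with the exonuclease Exo1, the clamp Pcna and its loaders Rfc1 to Rfc5, the single-strand binding proteins Rpa1 to Rpa3, DNA polymerase delta (Pold1 to Pold4), the ligase Lig1, and Setd2, Hmgb1 and Mcm9. All 18 were tested and 0 passed edgeR's test in either direction, 0 of them at an unadjusted p under 0.05. Their log2 fold changes had a median of -0.020, from 0.055 for Pold2 (SE 0.076, 50.1 ± 3.22 CPM in Ground, 52.0 ± 2.67 in Space) to -0.17 for Pold4 (SE 0.48, 4.81 ± 1.56 and 4.27 ± 2.62; SD, n = 3). Values were below 0 for 14 of the 18, and for 3 of the 18 with total counts, which moved the median to 0.017. The summed level was 2834 CPM in Ground-1 and 2814 in Space-3, against 3145 to 3209 CPM in the other 4 libraries. Ground-1 and Space-3 were the lowest pair for 14 of the 18, against 19.7% of all genes tested. The other 4 were Pold3, Rpa3, Setd2 and Pold4, and Pold4 was highest in these libraries, at 6.09 CPM in Ground-1 and 6.83 CPM in Space-3.

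The meiotic crossover list held 18 genes that work with or beside Msh4, Msh5 and Mlh3, such as Rnf212, Hfm1, Tex11 and the synaptonemal complex gene Sycp1. All 18 passed the filter, and 0 passed edgeR's test in either direction, with 0 at an unadjusted p under 0.05. The median log2 fold change was -0.069, and it was -0.037 with total counts, with values below 0 for 15 and 13 of the 18. Without Space-1 values were below 0 for 11 of the 18. The median of all genes tested was -0.0020 with all libraries. The range was from 0.027 for Rec8 (SE 0.20, 65.5 ± 15.3 CPM in Ground, 66.8 ± 14.7 in Space) to -0.42 for Meiob (SE 0.29, 3.27 ± 0.443 and 2.44 ± 0.828; SD, n = 3). The groups did not overlap for 2 of the 18, Sycp1 (132.9 ± 1.58 CPM in Ground, 127.7 ± 1.91 in Space) and Hormad1 (24.4 ± 0.658 and 22.3 ± 0.952; SD, n = 3), where 3.59% of all genes tested did not overlap.

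Over the 6 libraries the genes whose log2 CPM was most like that of a member were Ogdhl and Hnrnpul2 for Msh6 (r = 0.9989 and 0.9965), 0610010K14Rik and Pfkfb3 for Msh3 (0.999 and 0.9988), and Urb2 and Dnajc7 for Mlh3 (0.9983 and 0.9947). For Msh4 they were Ago3 and 1700109H08Rik (both 0.9932), and for Msh5 1700113A16Rik and Prdm4 (0.9858 and 0.9816). Npl and Col23a1 were nearest to Pms2 (0.9991 and 0.9979), and Mphosph9 and Shmt1 to Pms1 (0.9989 and 0.987). Each member was compared with 15103 genes over 6 points only, and high values are common at that number. An r above 0.9 was reached by 1181 genes for Msh3, 1138 for Msh6 and 965 for Mlh3, but by 304 for Pms2, 127 for Msh4, 108 for Pms1 and 65 for Msh5.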

How the data were processed

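For the 6 libraries the authors deposited raw counts of 32285 genes, neither normalized nor pooled. Per the submitters' processing notes, the tools were bcl2fastq 2.20, cutadapt 4.1, HISAT2 2.2.1 and HTSeq 2.0.2 with mm10, and the methods of the study name GENCODE M21. The labels and the methods name different stranded kits, sequencers and read layouts. Space was compared with Ground in edgeR 4.0.16 (R 4.3.3): filterByExpr left 15104 genes, libraries were scaled by TMM, and the 2-sided quasi-likelihood test had no replicate block, with Benjamini-Hochberg adjustment over all genes tested and a threshold of 0.05. The SE is the size of the log2 fold change divided by the square root of F. CPM are counts over scaled library size, with a prior count of 2 for log2 CPM. Counting error is the inverse square root of a count and covers counting only, since reads without molecular identifiers are not independent molecules. Positions and exon lengths are from GENCODE M21 (GRCm38), and promoters from RefSeq. A length was found in GENCODE M21 for 15098 of the 15104 genes tested, so the counts may rest on another annotation. DESeq2 1.42.0, limma-voom (limma 3.58.1), other scalings and filters, a replicate block and leaving out each library were alternatives. The procedure was tested on simulated counts. No library was an identical copy of another.

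The members and gene lists were chosen with earlier results of these data known. Named were the 7 members, the highest and lowest log2 fold change of the partner and crossover lists where 0 genes passed, the neighbours on the opposite strand, and the 2 genes most like each member. Sycp1, Hormad1, the exceptions in the cell cycle and partner lists, the overlapping genes, the mitochondrial share and the choice of library pairs were named after their values were seen. Protein sequences were not used here, and a neighbouring gene is not reported here.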

Additional observations from a re-analysis of the deposited data

How the results depend on the processing

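The count of 0 members and 0 genes in all past the threshold was found in all 15 alternatives, as was 0 for the partner, crossover and neighbour lists. The replicate block, with the replicate number of the titles, gave 0 genes, 63 of them at an unadjusted p under 0.05, and changed no call. The numbers did not pair the libraries: after removing group means, libraries of the same number correlated at -0.483, 0.28 and -0.597 over the 1000 most variable genes, and only the libraries numbered 2 correlated best with their own number. Without 1 library, the unadjusted count of all genes ran from 64 without Ground-2 to 161 without Ground-1, and it was 192 with no filter. Leaving out both Ground-1 and Space-3, added after seeing the data, gave 78 and turned no sign of a member or ratio.

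Changes of members near 0 reversed in sign, each with an edgeR adjusted p of at least 0.9997. With total counts, which moved the median of all genes to 0.033, Msh3 was 0.0085, Msh4 0.0052 and Pms2 0.020. Leaving out each library in turn gave ranges of -0.028 (without Space-1) to 0.10 for Msh6, -0.10 to 0.037 (without Space-3) for Msh3, -0.11 to 0.042 (without Space-1) for Msh4, -0.048 to 0.020 (without Space-1) for Pms2, -0.030 (without Space-2) to 0.052 for Pms1 and -0.0012 (without Space-1) to 0.17 for Mlh3. The sign also turned for Msh6 (-0.020) and Msh4 (0.015) without Ground-1, for Pms2 (0.015) without Ground-2 and for Msh3 (0.034) without Ground-3. Msh5 stayed above 0, at 0.017 to 0.095, in these fits. The cause was not tested.

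In fits without 1 library the Msh6 to Msh3 ratio differed by 0.048 to 0.080 on the log2 scale, the Msh5 to Msh4 ratio by 0.0037 to 0.18, and the Pms2 to Mlh3 ratio by -0.19 to 0.018, the last without Space-1. The 6 steps in the order of levels were put to a 2-sided exact sign-flip test over the libraries that set the order. Its outcome is therefore no support for the order. All 6 steps passed with all libraries, and 0 of 6 passed in each fit without 1 library or without both Ground-1 and Space-3. With 5 and 4 libraries no exact p can fall below 0.0625 and 0.125, and the sign of each step was kept. With the longest transcript as length the step from Pms2 to Pms1 was -0.31 and that from Mlh3 to Msh3 -0.80 on the log2 scale. Depth limits Msh4 and Msh5 most.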
